A study of Mus musculus with 57 samples.

Results

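Among 54 single mouse T helper 2 (Th2) cells, 22 cells with abundant Il3 transcript were set against 25 cells with little or none, and all other genes were compared between them. The groups were chosen by the Il3 level itself: Il3-high cells had Il3 at 1000 TPM or more (a transcript level scaled to the same total in every cell), and Il3-low cells were below 100 TPM. The 7 cells between these limits were not used in the comparison, and cells T3_2 and T3_5 of the 56 profiled were left out by rule. Both groups came from 1 culture scheme: wild type C57BL/6 mice aged 8 weeks, splenic CD4+ T cells activated through CD3 and CD28 with interleukin-4 and anti-IFNγ, interleukin-2 after 2 days, 5 days of culture, then restimulation through CD3 and CD28. The labels give no difference in treatment between the groups, which were formed by the Il3 level measured in the same libraries. They also differ in their share of the sets and in genes detected, as given below. The pooled sample of 10000 cells in the series was not used here. The labels tie cells to no animal or culture, so each group counts as 1 sample. No test was made, and a difference is given as a size with its spread over cells.

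Interleukin-3 is a growth factor for many blood lineages and is known above all for expanding mast cells and basophils. In T cells its gene is switched on by antigen receptor signals through calcium and NFAT, and it lies beside Csf2, which encodes the related growth factor GM-CSF. Th2 cells are the CD4+ helper cells of allergic and anti-helminth responses.

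Il3 itself, given as a description because it chose the groups, lay between 1258 and 80859 TPM in Il3-high cells (median 6524) and between 0 and 68 TPM in Il3-low cells (median 8). In the 2 highest cells, T2_8 and T2_10, Il3 alone made up 8.09% and 7.55% of all transcripts. The lowest Il3-high cell was T1_5 at 1258 TPM, and the highest cell below that limit was T3_1 at 756 TPM. At the lower limit, T5_11 stood inside at 68 TPM and T4_10 outside at 218 TPM.

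Every set of cells in the sample titles (T1 to T5, whose meaning the labels do not give) held both groups, in unequal numbers. Il3-high and Il3-low cells numbered 5 and 2 in T1, 5 and 7 in T2, 3 and 4 in T3, 6 and 3 in T4, and 3 and 9 in T5. More genes were detected (at 1 TPM or more) in Il3-high cells, with a median of 4995 genes and a range of 3380 to 6983, than in Il3-low cells, with a median of 4696 and a range of 2679 to 5481. The median Il3-low cell had fewer genes than the median Il3-high cell in T2, T3, T4 and T5 and more in T1 (4623 genes in Il3-high and 4824.5 in Il3-low cells). In the same order the medians were 5051 and 4807 in T2, 4737 and 3995 in T3, 4849.5 and 3833 in T4, and 5146 and 4696 in T5. The part of the number of genes detected in the differences below was not tested. Values with the set and the number of genes detected in the fit are given beside the main results.

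**Figure D1:**
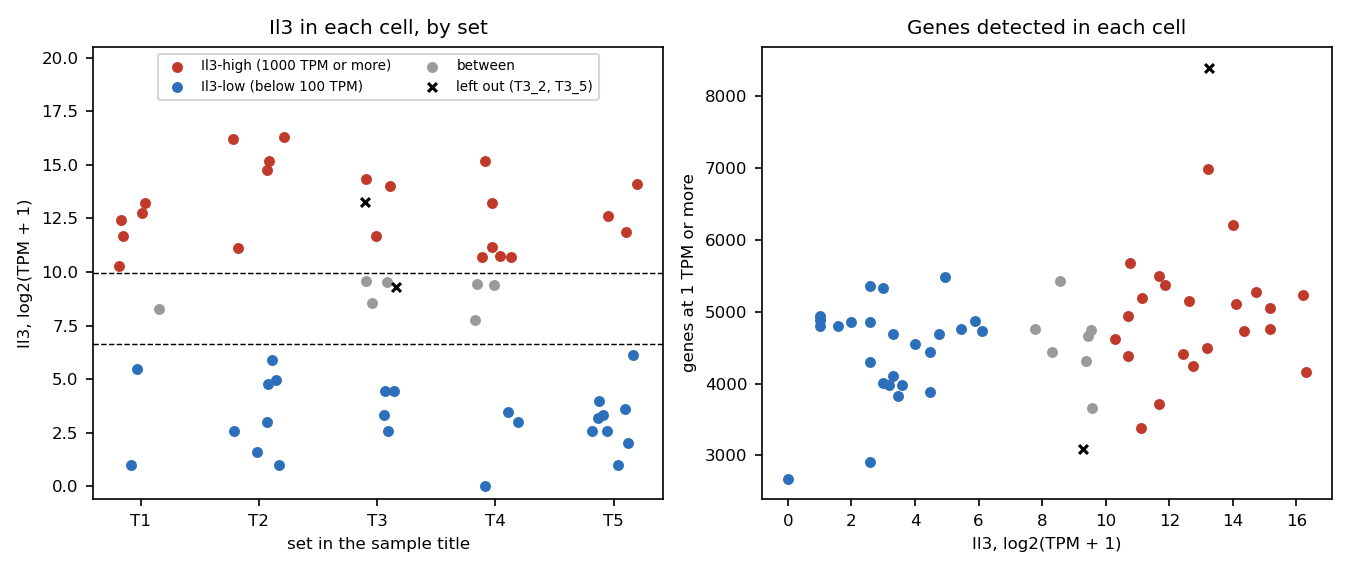
Left, Il3 in each cell by set, as log2(TPM + 1), with dashed lines at 1000 and 100 TPM. Right, the number of genes at 1 TPM or more in each cell against its Il3 level. Points are cells. Both groups occur in every set, and the numbers of genes detected overlap widely between Il3-high cells (3380 to 6983) and Il3-low cells (2679 to 5481).

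Most Th2 and T cell markers were found in both groups. Gata3, the master regulator of the Th2 fate, was detected in 22 of 22 Il3-high and 25 of 25 Il3-low cells, at medians of 838 TPM in Il3-high and 974 TPM in Il3-low cells. Cd3d, which encodes a chain of the antigen receptor complex, was in all 47 cells, at medians of 1138.5 TPM in Il3-high and 1281 TPM in Il3-low cells. Cd3e, Cd2 and Ecm1 were also in all 47 cells and differed by 0.57, -0.21 and -0.09. Cd4, the coreceptor by which the starting cells were isolated, was in 19 of 22 Il3-high cells (median 30.5 TPM) and 13 of 25 Il3-low cells (median 2 TPM) and differed by 1.75. The markers Il4 and Ccr8 differed by 2.14 and -2.80 and are described below. Of the markers of other cell types, 5 of 14 for mast cells and basophils (which also make Il3) and 1 of 12 for B cells could be examined. So could 2 of 10 for CD8 T and NK cells and 1 of 10 for erythroid cells and platelets. Of 16 myeloid markers 0 were among the listed genes, so myeloid cells could not be examined. The summed level of the mast cell and basophil markers was 0 TPM in the median cell of both groups and at most 269 TPM in an Il3-high and 481 TPM in an Il3-low cell. Cd74, the B cell marker examined, had a median of 15.5 TPM in Il3-high cells (0 to 526) and 1 TPM in Il3-low cells (0 to 202). Cd8b1 was detected in 0 of the 54 cells. Eomes was detected in 2 Il3-high cells, at up to 196 TPM, and in 0 Il3-low cells. Alas2 reached 16 TPM in Il3-high and 101 TPM in Il3-low cells. The part of these markers in the results was not tested.

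Across the 7641 genes detected in at least 10 of the 54 cells, 127 (1.66%) were higher in Il3-high cells by 2 or more on the scale of mean log2(TPM + 1), and 15 (0.196%) were lower by 2 or more. The median gene differed by 0.19, and 4713 genes were above 0. With the number of genes detected per cell in the fit the median gene was at -0.04, 69 genes were higher and 68 lower by that size, and 63 of the 127 and 15 of the 15 were among them. With set in the fit, 134 genes (1.75%) were higher and 28 (0.366%) lower, among them 95 of the 127 and 12 of the 15. The number lower ranged from 19 to 58 when any 1 set was left out, and the number higher was 319 without T2, so these counts describe the 47 cells and are not stable totals. Within sets, 61 of the 127 and 6 of the 15 had the same direction in every one of the 5 sets. Over all genes, 5.17% were higher and 1.75% lower in Il3-high cells in all 5 sets. The 127 and the 15 were chosen by their difference over these same cells, so agreement between sets is in part built in.

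The largest differences were in secreted factors. Chemokines, which draw other leukocytes to a site, were the list with the highest median difference, 2.79 over the 6 that entered against 0.19 over all genes. All 6 were above the median of all genes, and 3 of 6 were higher by 2 or more, against 1.66% of all genes. The list median was not alike in all sets. It was 3.07 in T2, 4.84 in T3 and 3.72 in T4, but 0.51 in T1 and -0.31 in T5.

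Ccl1, the ligand of the Th2 chemokine receptor CCR8, led all genes. It ranged from 19 to 47466 TPM in Il3-high cells (median 20250) and from 0 to 31063 TPM in Il3-low cells (median 219). The groups overlapped: 4 Il3-high cells lay above every Il3-low cell, and 8 Il3-low cells lay below every Il3-high cell. Mean log2(TPM + 1) was 13.12 ± 3.05 in Il3-high and 8.13 ± 4.56 in Il3-low cells (SD over 22 and 25 cells), a difference of 4.99. Within sets the difference was 0.50 for T1, 5.49 for T2, 10.03 for T3, 3.67 for T4 and 5.64 for T5. It was 4.57 with set and genes detected in the fit.

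Ccl4, an inflammatory chemokine, was detected in 21 cells of each group but at very different levels. Il3-high cells ranged from 0 to 45568 TPM (median 1954.5) and Il3-low cells from 0 to 27203 TPM (median 10). At 100 TPM or more there were 14 Il3-high and 5 Il3-low cells, and the difference was 4.70, with 0.53 in T1 and between 2.55 and 8.30 in the other sets.

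Ccl3, another inflammatory chemokine, was close to absent from Il3-low cells, where no cell exceeded 4 TPM. In Il3-high cells it ran from 0 to 9504 TPM, and 10 of 22 cells lay above every Il3-low cell. The 3 highest were T2_10 at 9504 TPM, T4_6 at 5639 TPM and T2_8 at 2496 TPM. The difference was 3.88 over all cells and 0.00 within T5, where no cell of either group held Ccl3. As a difference of medians it was 0.50, because 11 of the 22 Il3-high cells were listed at 0.

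Among the other chemokines, Xcl1, the ligand of XCR1 on dendritic cells, reached 2786 TPM in Il3-high and 14 TPM in Il3-low cells, with a difference of 1.07. Ccl5 differed by 1.69 and its value in Il3-high cells included a cell at 29317 TPM. The neutrophil chemokine Cxcl2 differed by 1.56. None of these 3 reached a difference of 2, and each had the opposite sign in at least 1 set.

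**Figure D2:**
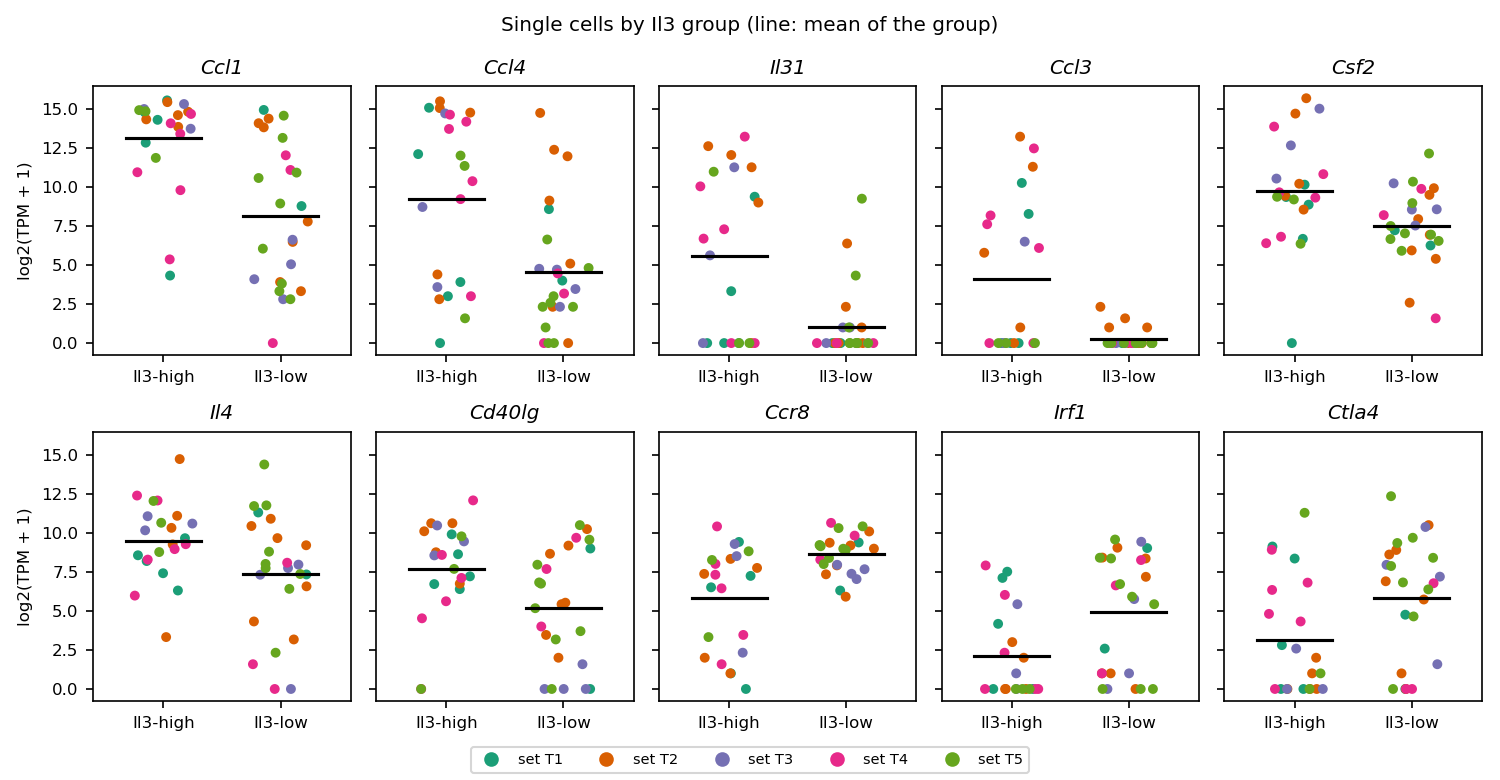
Level of 10 genes in each cell of both groups, as log2(TPM + 1). Points are cells coloured by set and lines are group means. Ccl3 lies at 4 TPM or less in every Il3-low cell, Ccr8 is at 59 TPM or more in every Il3-low cell, and the groups overlap for all 10 genes.

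Th2 cytokines other than Il3 divided. Of the 10 that entered, 4 were higher by 2 or more and 0 lower (1.66% and 0.196% of all genes). The median difference was 1.03 against 0.19 over all genes. It was 0.58 with genes detected in the fit, and within sets it ran from 0.22 in T1 to 2.56 in T3. Il31, the cytokine of itch, was the most different. It was detected in 13 of 22 Il3-high cells, at up to 9501 TPM (median 75), and in 8 of 25 Il3-low cells, at up to 605 TPM (median 0). At 100 TPM or more there were 11 Il3-high cells and 1 Il3-low cell. Il31 differed by 4.52 (5.57 ± 5.25 in Il3-high and 1.05 ± 2.30 in Il3-low cells) and had the same direction in every set, from 2.04 in T5 to 7.59 in T2.

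Csf2, the chromosomal neighbour of Il3 with no coding gene between them in the RefSeq gene order, was found in nearly all cells of both groups. It ranged from 0 to 52207 TPM in Il3-high cells (median 673 TPM) and from 2 to 4495 TPM in Il3-low cells (median 179 TPM). Of the Il3-high cells, 5 exceeded every Il3-low cell, and 19 of 22 Il3-high and 18 of 25 Il3-low cells held 100 TPM or more. It differed by 2.18, positive in all 5 sets but only 0.27 in T1 and 0.31 in T5, and by 1.34 without T2.

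Il4, the defining Th2 cytokine, had a median of 709 TPM in Il3-high cells (9 to 26918) and 213 TPM in Il3-low cells (0 to 21171). The difference was 2.14 but 1.32 with the number of genes detected in the fit, and it was -1.29 within T1. Areg, an epidermal growth factor family member, differed by 2.11, with medians of 142.5 TPM in Il3-high and 7 TPM in Il3-low cells, and by 0.60 without T5.

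The remaining cytokines differed by less than 2. Il10, an anti-inflammatory cytokine, had medians of 836.5 TPM in Il3-high and 846 TPM in Il3-low cells. Its difference was 0.63 over all cells and positive within every set, 1.82 with set in the fit and -0.40 with genes detected in the fit. Il24, of the same family, had 1255.5 TPM in Il3-high and 1120 TPM in Il3-low cells and a difference of -0.40. Il13 differed by 1.17, Il9 by 0.89, Il6 by -0.83 and Il5, the eosinophil growth factor, by -1.68. At 100 TPM or more, Il5 was in 1 Il3-high and 6 Il3-low cells, and its sign varied between sets (4.28 in T3 and -5.67 in T5). The T cell growth factor Il2 was detected in 15 cells of each group, at medians of 2 TPM in both, and differed by 0.63. Il21 entered no comparison, as it was detected in 3 cells.

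The stretch of 250 bases before the transcription start is shown for Il3, for its neighbour Csf2 and for Ccl1, the gene that differed most, because Il3 set the groups and the others are compared with it. Sequences are from RefSeq, build GRCm38.p6, minus strand, given 5′ to 3′. Capitals mark the NFAT core GGAAA on either strand (TTTCC on the reverse) and the NF-kB motif.
Il3 (chr11:54267280-54267529): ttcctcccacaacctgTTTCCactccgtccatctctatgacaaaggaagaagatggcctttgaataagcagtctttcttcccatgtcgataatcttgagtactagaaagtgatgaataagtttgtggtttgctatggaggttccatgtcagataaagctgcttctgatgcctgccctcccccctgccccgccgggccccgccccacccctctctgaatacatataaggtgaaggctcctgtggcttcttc
Csf2 (chr11:54249900-54250149): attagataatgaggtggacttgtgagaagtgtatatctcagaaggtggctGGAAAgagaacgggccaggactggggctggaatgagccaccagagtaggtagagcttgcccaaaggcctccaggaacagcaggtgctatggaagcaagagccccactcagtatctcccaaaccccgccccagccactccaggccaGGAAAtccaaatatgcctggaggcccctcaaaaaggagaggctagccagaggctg
Ccl1 (chr11:82179813-82180062): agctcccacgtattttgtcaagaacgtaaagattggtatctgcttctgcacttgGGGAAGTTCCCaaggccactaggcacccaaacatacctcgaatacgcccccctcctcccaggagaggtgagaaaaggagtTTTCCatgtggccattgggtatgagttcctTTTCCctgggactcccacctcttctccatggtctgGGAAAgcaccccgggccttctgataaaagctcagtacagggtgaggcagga

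The Il3 window holds 1 NFAT core, the Csf2 window 2 and the Ccl1 window 3, and Ccl1 also holds 2 overlapping NF-kB matches, one on each strand. Over 27025 mouse promoter windows of the same length, 55.6% hold the NFAT core at least once, 6.5% at least 3 times and 7.01% the NF-kB motif. The AP-1 motif TGANTCA, found in 6.87% of windows, is in none of these 3. The Il31 window holds none of the 3 motifs, and that of Pdzk1ip1 holds the NFAT core 4 times. A match is a description of the sequence only.

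Membrane-bound and secreted ligands of the TNF family were mostly on the higher side: 10 of 11 had a positive difference (4713 of 7641 over all genes), 3 were higher by 2 or more (1.66% of all genes), and the median was 1.29 against 0.19. Tnfsf4, the ligand of OX40, differed by 2.58, with medians of 23.5 TPM in Il3-high and 0 TPM in Il3-low cells. It was under 2 with set in the fit (1.79) and with both terms (1.53), and -1.55 within T1. Cd40lg, which licenses B cells, was detected in 20 cells of each group, at a median of 378 TPM in Il3-high (0 to 4306) and 42 TPM in Il3-low cells (0 to 1436). Its difference of 2.50 came from T1, T2 and T3 (3.27, 3.01 and 9.09), with -0.80 in T4 and -0.14 in T5, and was 1.31 without T3. Tnfsf11, known as RANKL, differed by 2.32, by 1.58 with genes detected in the fit and by 1.44 with both terms, with -0.13 in T2 and -0.03 in T4. Lta differed by 1.80, Fasl by 1.61 and Tnf by 0.71. With set and genes detected in the fit the median of the list was 0.50. Receptors of the family were not shifted in the same way (8 genes, median -0.16, 0 past 2 in either direction).

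Taking these cytokine, chemokine and TNF ligand lists together, a count chosen after the values were seen, Il3-high cells held 12 of 32 genes at 100 TPM or more in the median cell (7 to 20) and Il3-low cells 9 (2 to 17). Their summed share of all transcripts, Il3 not included, was 4.16% in the median Il3-high cell (0.472% to 19.2%) and 1.16% in the median Il3-low cell (0.0956% to 6.28%). Ccl1 and Ccl4 are in this sum, so the share in part repeats their differences. Ccl1 alone was at 40400 TPM in the Il3-high cell T3_8 (share 5.22%) and at 24104 TPM in the Il3-low cell T5_3 (share 3.26%). The median share was larger in Il3-high than in Il3-low cells in each set: 3.33% in Il3-high and 2.5% in Il3-low cells in T1, and in the same order 7.61% and 1.3% in T2, 5.22% and 0.341% in T3, 2.78% and 1.97% in T4, and finally 3.83% and 1.77% in T5. The number of genes was not, with 12 in Il3-high and 14 in Il3-low cells in T4, and 12 in Il3-high and 12.5 in Il3-low cells in T1. T2_8, the cell with the most Il3, also had the most such genes, 20, and the largest share, 19.2%.

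Granule genes, best known from cytotoxic lymphocytes, held 3 of 10 members higher by 2 or more (1.66% of all genes). Their median was 1.17, and 0.71 with genes detected in the fit. Serpinb6b, an intracellular serine protease inhibitor, had a median of 367.5 TPM in Il3-high (0 to 3998) and 1 TPM in Il3-low cells (0 to 1690), and differed by 3.86 although T1 went the other way (-4.66). Nkg7, a granule membrane protein, was detected in 13 of 22 Il3-high and 7 of 25 Il3-low cells and differed by 3.31, with the same sign in every set. Serpinb9, an inhibitor of granzyme B that was picked out after its value was seen, differed by 3.07. Granzyme B itself, Gzmb, had medians of 2713.5 TPM in Il3-high and 889 TPM in Il3-low cells and differed by 1.92, while the granule proteoglycan Srgn differed by -0.08.

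Unnamed gene models were left out of the ranking that follows, such as 4833419F23Rik (2.90, same direction in every set). The 15 genes with the largest positive difference and the same direction in every set were Ccl1, Ccl4, Il31, Pdzk1ip1 (3.61), Nrn1 (3.33), Nkg7, Gramd1b (3.28), Bckdk (3.10), Mrps35 (2.99), Srxn1 (2.95), Zfp263 (2.75), Ell2 (2.72), Nr4a1 (2.71), Crem (2.71) and Srfbp1 (2.70). All 15 were found in cells of both groups. Pdzk1ip1, a small membrane protein, was detected in 19 of 22 Il3-high and 10 of 25 Il3-low cells, at medians of 246 TPM in Il3-high and 0 TPM in Il3-low cells. The GPI-anchored neuritin gene Nrn1 was in 19 Il3-high and 11 Il3-low cells, at medians of 209 TPM in Il3-high and 0 TPM in Il3-low cells. Gramd1b, which encodes a cholesterol transfer protein of the endoplasmic reticulum, had medians of 91 TPM in Il3-high and 1 TPM in Il3-low cells, and 10 Il3-high and 2 Il3-low cells held 100 TPM or more.

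Within this group, Ell2, an elongation factor of RNA polymerase II, was in every Il3-high cell at 20 TPM or more (median 196.5 TPM), while 11 of 25 Il3-low cells lay below that level (median 28 TPM). Nr4a1, an orphan nuclear receptor induced within the first hours of antigen receptor signalling, was in 18 Il3-high and 10 Il3-low cells, at medians of 22.5 TPM in Il3-high and 0 TPM in Il3-low cells. The highest Nr4a1 value, 2354 TPM, was nonetheless in an Il3-low cell. Crem, a cyclic AMP-responsive transcription factor, had 5 Il3-high cells above every Il3-low cell, whose highest value was 103 TPM. Srxn1, the antioxidant enzyme sulfiredoxin, was in 20 Il3-high and 11 Il3-low cells, and Bckdk, the kinase that restrains branched-chain amino acid breakdown, in 20 Il3-high and 11 Il3-low cells.

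**Figure D3:**
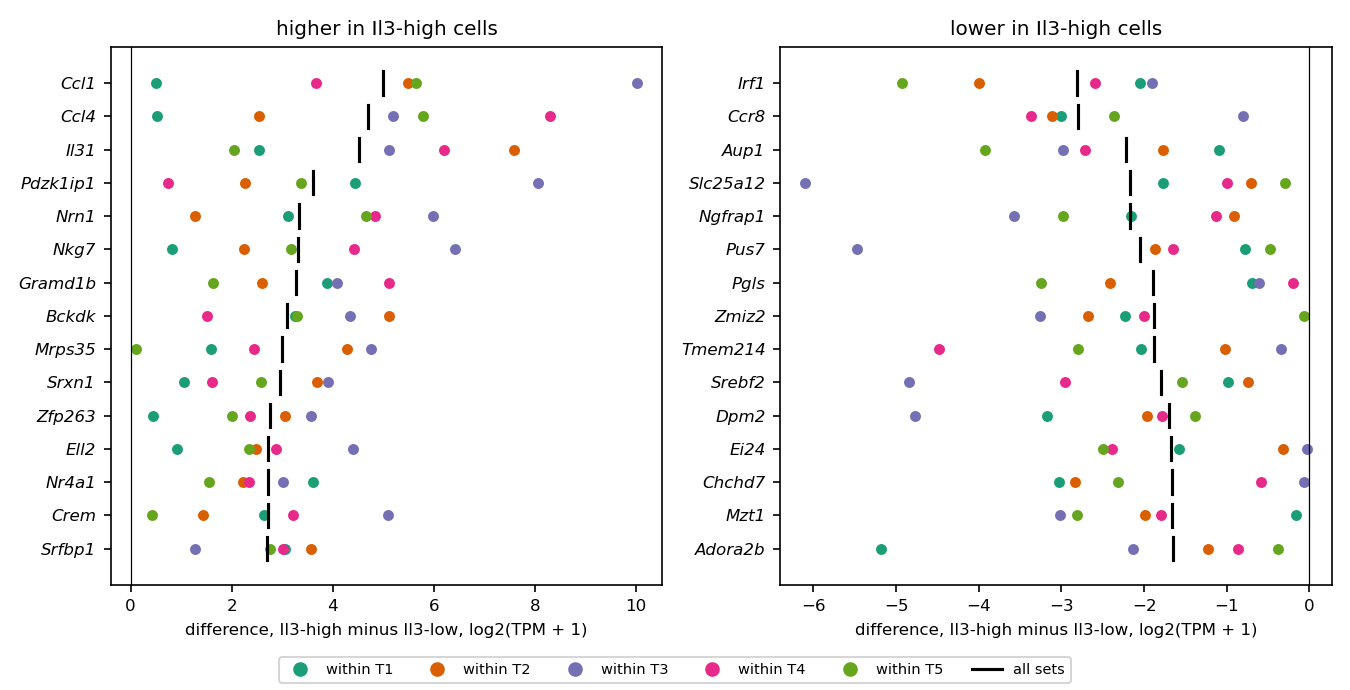
Difference of mean log2(TPM + 1), Il3-high minus Il3-low, for the 15 genes with the largest positive (left) and negative (right) difference among those with the same direction in every set. Unnamed gene models were left out. Points are differences within each set, bars are differences over all cells. Values within sets are scattered, from 0.50 to 10.03 for Ccl1 and from -3.37 to -0.80 for Ccr8, and each set holds 2 to 9 cells of each group.

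Among the 15 genes lower by 2 or more was the receptor for Ccl1. With set and genes detected in the fit, 72 genes were higher and 97 lower by that size, so which direction holds more genes turned with the fit. Ccr8, a Th2 homing receptor, was at 59 TPM or more in every Il3-low cell (median 503, highest 1586 TPM). In Il3-high cells it was detected in 21 of 22, at up to 1355 TPM (median 154), and 8 of the 22 lay below every Il3-low cell. Mean log2(TPM + 1) was 5.83 ± 3.29 in Il3-high and 8.63 ± 1.25 in Il3-low cells, a difference of -2.80. It was negative in every set, from -3.37 in T4 to -0.80 in T3, and -2.82 with set and genes detected in the fit. The 7 cells between the groups had a median of 134 TPM.

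Irf1, a transcription factor induced by interferons, was detected in 10 of 22 Il3-high cells (median 0, highest 239 TPM) and 20 of 25 Il3-low cells (median 59, highest 757 TPM). It differed by -2.81 and was lower in Il3-high cells in every set. In 9 Il3-low cells it exceeded every Il3-high cell. In the list of interferon response genes, 1 of 23 was lower by 2 or more (0.196% of all genes). Of the 23, 9 had a positive and 14 a negative difference (4713 and 2928 of all 7641 genes), and 6 were above the median of all genes. The list median was -0.26, against 0.19 over all genes. With set in the fit it was 0.06, against 0.18.

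Ctla4, an inhibitory receptor of the CD28 family, differed by -2.68, with medians of 2 TPM in Il3-high and 112 TPM in Il3-low cells, and by -1.88 without T2. Its sign was not shared between sets: it was -5.35 in T2, -5.91 in T3 and -3.18 in T5, but 1.68 in T1 and 2.94 in T4. The difference between sets was not tested. Icos, of the same family, differed by -1.06.

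In sterol synthesis, Sc4mol, an enzyme of cholesterol synthesis, had the most negative difference of all genes, -2.90, with detection in 8 of 22 Il3-high and 17 of 25 Il3-low cells and 0.03 within T1. Srebf2, the transcription factor that drives the pathway, differed by -1.80 and was negative in every set. Over the 16 genes of the pathway the median was 0.01, with 8 positive and 8 negative differences (4713 and 2928 of all 7641 genes).

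The other genes of the 15 with the most negative difference and one direction in every set, unnamed gene models left out, were Aup1 (-2.22), Slc25a12 (-2.17), Ngfrap1 (-2.17), Pus7 (-2.05), Pgls (-1.89), Zmiz2 (-1.88), Tmem214 (-1.88), Dpm2 (-1.70), Ei24 (-1.68), Chchd7 (-1.66), Mzt1 (-1.66) and Adora2b (-1.65). Aup1, a protein of lipid droplets and the endoplasmic reticulum, had medians of 31 TPM in Il3-high and 222 TPM in Il3-low cells and within-set differences from -3.92 to -1.09. Only Ccr8, Irf1, Aup1, Slc25a12, Ngfrap1 and Pus7 of the 15 reached -2.

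**Figure D4:**
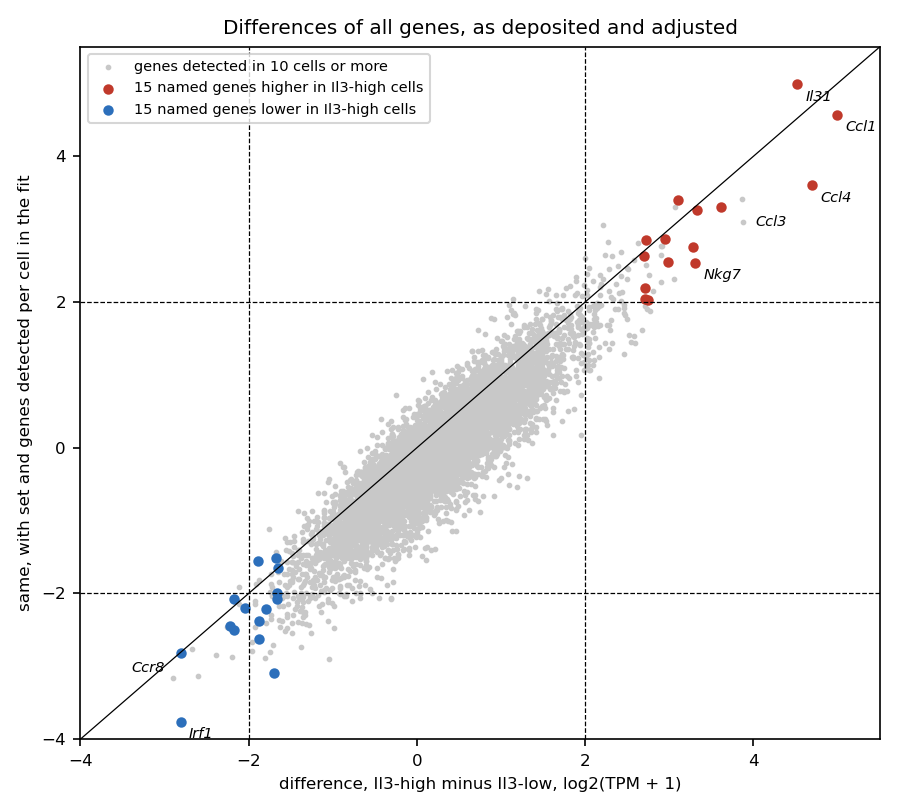
Difference of every gene between Il3-high and Il3-low cells on the log2(TPM + 1) scale (horizontal), against the same difference with set and genes detected per cell in the fit (vertical). Grey points are the 7641 genes, red and blue points the named genes with one direction in every set, dashed lines mark 2 and -2. Most of the cloud lies a little below the diagonal (median 0.19 as deposited and -0.06 in the fit), while Ccl1, Ccl4, Il31, Ccr8 and Irf1 stay outside the lines on both axes.

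Regulators, receptors and other genes of the Th2 fate were mostly on the lower side by small amounts. Of 21 genes, 16 had a negative and 5 a positive difference (2928 and 4713 of all 7641 genes), and 4 were above the median of all genes. The median was -0.25, and -0.57 with set in the fit. By 2 or more, 1 was higher and 1 (Ccr8) lower. The higher gene was Stat6, which carries the interleukin-4 signal. It was in 22 of 22 Il3-high cells at 4 to 749 TPM (median 120) and in 18 of 25 Il3-low cells at up to 1593 TPM (median 13), and differed by 2.42, with -0.65 in T5 and 1.76 without T3. Gata3 differed by -0.10. Batf, an AP-1 factor, had medians of 104 TPM in Il3-high and 687 TPM in Il3-low cells and differed by -1.59, but by 3.03 within T1.

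Lists of genes of the signals that induce Il3 had medians near that of all genes (0.19). Only transcript levels were compared, and the activity of these signals was not tested. Of 18 calcium and NFAT pathway genes, 0 passed 2 in either direction and the median was 0.25. The calcium channel Orai1 was the highest, at 1.84 and positive in all 5 sets, and the calmodulin gene Calm3 the lowest, at -1.13. Of 30 immediate early genes of T cell receptor signalling, 1 (Nr4a1) was higher by 2 or more, against 1.66% of all genes. The list median was 0.10, and Egr1 stood at -0.71 and Cd69 at 0.32. Of 22 NF-kB pathway genes, 1 was higher by 2 or more, against 1.66% of all genes. The list median was 0.11, and 6 of the 22 were above the median of all genes. The higher gene was the subunit Rel, at 2.09 (1.84 with genes detected in the fit). It was detected in 22 of 22 Il3-high and 20 of 25 Il3-low cells, at medians of 83 TPM in Il3-high and 22 TPM in Il3-low cells. T cell receptor complex genes had a median of 0.13 over 19 genes, with 0 past 2.

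A list of secreted peptides and tissue factors, which also holds the intracellular Crabp2, held 4 of 12 genes higher by 2 or more (median 1.32). Over all genes 1.66% were higher by that size, and within sets the list median ran from -0.80 in T1 to 2.15 in T4. The 4 genes of the list were Nts, Crabp2, Penk and Inhba, an activin subunit named here after its value was seen (2.09). Penk, the enkephalin precursor, was at 3023 TPM or more in every Il3-high cell (median 34720), while 7 of 25 Il3-low cells lay below that level (median 20623). Its difference of 2.40 was 0.75 as a difference of medians. Within sets it was 6.26 in T3 and 4.36 in T4, but -0.37 in T1, 0.39 in T2 and 0.97 in T5. Nts, the neurotensin precursor, differed by 3.05 but by -3.33 within T5, and Crabp2, a retinoic acid binding protein of the cytosol, by 2.47 and by 1.82 with both terms. Mmp10, a matrix metalloproteinase, went the other way at -1.96, with medians of 13 TPM in Il3-high and 356 TPM in Il3-low cells and both signs among the sets.

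Medians of the cell cycle lists depended on the terms in the fit. The 39 G1/S genes had a median of 0.62, with 33 above 0 (4713 of 7641 over all genes). Of the 39, 2 (Prim1 and Chaf1b) were higher by 2 or more, against 1.66% of all genes. The median was 0.23 with genes detected in the fit. The 47 G2/M genes had a median of 0.21, which was -0.28 with that term but 0.81 with set in the fit, and within-set medians from 0.12 to 1.74. Tacc3 was the 1 gene of the 47 higher by 2 or more, against 1.66% of all genes. With genes detected in the fit, Prim1 was at 1.94, Chaf1b at 1.43 and Tacc3 at 1.34. Metabolic and translation lists lay near the median of all genes: glycolysis at 0.04 over 15 genes, oxidative phosphorylation at 0.11 over 75 (1 higher by 2, Ndufb2, which was at 1.37 with genes detected in the fit), amino acid transport at 0.25 over 17 and cytosolic ribosomal proteins at -0.03 over 77, where family members share sequence with pseudogenes and their levels are uncertain. The unfolded protein response and secretory pathway was at 0.40 over 25 genes, heat shock chaperones at 0.21 over 12, and ribosome biogenesis at 0.22 over 22, with 0 past 2 in each.

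Besides the lists with medians below 0 given above, naive and homing genes (10 genes, -0.55, Lef1 lowest at -1.46), AP-1 and partner factors (16, -0.35) and the interleukin-2 and STAT5 pathway (17, -0.35) were below 0, each with 0 genes past 2. The remaining lists were costimulatory and inhibitory receptors (16 genes, 0.38), survival and p53 genes (22, 0.38), genes of other helper fates (9, 0.43), MHC class I (9, 0.22), integrins and adhesion (15, 0.17, with the tetraspanin Cd9 at 2.90) and housekeeping genes (16, 0.02). The growth factor and interleukin-2 family list, which shares Csf2 with the Th2 cytokines, had a median of 0.32 over 6 genes.

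**Figure D5:**
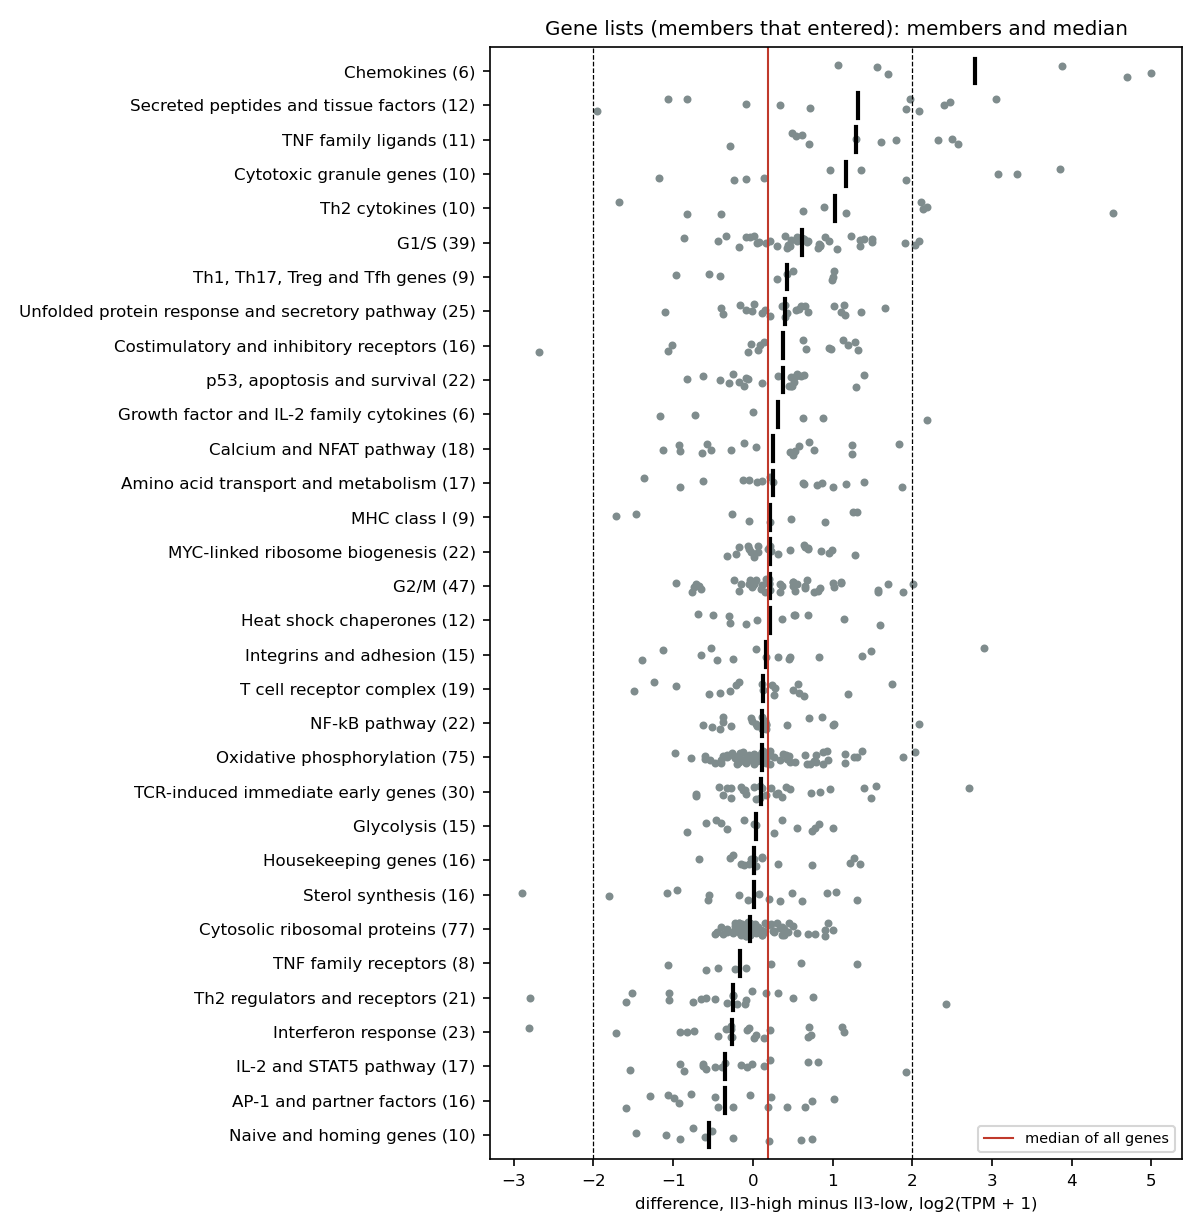
Differences between Il3-high and Il3-low cells on the log2(TPM + 1) scale for the members of 32 gene lists. Grey points are genes, black bars the median of each list, the red line the median of all genes (0.19) and dashed lines 2 and -2. Chemokines have the highest median (2.79), followed by secreted peptides and tissue factors (1.32, a list that includes the intracellular Crabp2) and TNF family ligands (1.29), and naive and homing genes the lowest (-0.55).

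The 7 cells between the groups, with Il3 at 218 to 756 TPM, were not used in any difference above. Of the 127 genes higher in Il3-high cells, 79 had a mean log2(TPM + 1) in these cells between the means of both groups, as had 8 of the 15 lower genes. Both sets of genes were chosen for a wide gap between the group means, which makes a mean inside the gap likely. The share over all genes was not computed, so these counts show no graded change with Il3. Ordered from Il3-low through the cells between to Il3-high, mean log2(TPM + 1) of Ccl1 was 8.13, 10.24 and 13.12, that of Csf2 7.53, 8.24 and 9.70, and that of Ell2 4.80, 5.54 and 7.52. Ccl4 was different, at 4.55, 1.92 and 9.25, and so were Ccl3 (0.24, 0.14 and 4.12) and Nr4a1 (1.85, 0.91 and 4.56). Ccr8 had 8.63, 5.54 and 5.83.

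Over all 54 cells, the gene most like Il3 by Spearman rho was Ccl1 (0.61, and 0.54 with ranks taken within sets). It was followed by Gramd1b (0.58 and 0.66), Hbegf, an epidermal growth factor receptor ligand (0.56 and 0.59), 1700110K17Rik (0.53 and 0.57), Srxn1 (0.52 and 0.57), Il31 (0.51 and 0.53), Zc3h12c (0.50 and 0.50), Plk2 (0.48 and 0.44), 3110003A17Rik (0.47 and 0.47) and 4833419F23Rik (0.47 and 0.47). Csf2 had 0.42 and 0.43. These values describe 54 libraries that differ in the number of genes detected, and they rest in part on the same cells as the differences.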

How the data were processed

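Per the labels' protocols, a Fluidigm C1, a microfluidic device, was used to isolate single cells. The deposited values are a score: TPM that the authors rounded to whole numbers, as the file shows (column sums 999202 to 999914). The submitters' processing notes name build mm9 and FastQC, Bowtie 0.12.2 and Cufflinks, with no roles or order stated. Depth is unknown, since TPM does not hold it, and a 0 can be a lost transcript (55.8% of values in the 54 cells were 0). No doublet caller was run.

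Levels were taken as log2(TPM + 1). Genes at 1 TPM or more in at least 10 of 54 cells entered, Il3 excepted, and the difference was the mean in Il3-high minus that in Il3-low cells. A size of 2 was the threshold for counts, and no test was made. Sets and genes detected were added as terms of a linear fit. The functions were tested on simulated data. Python 3.11.15, pandas 2.3.3, NumPy 2.4.6 and SciPy 1.17.1 were used.

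Named genes were the cytokine, chemokine and TNF ligand lists, the 15 largest differences each way with 1 direction in all 5 sets (unnamed gene models left out), up to 5 members of each other list, and the 10 genes most correlated with Il3. Members and the 37 lists were chosen with earlier results of these data known, and 32 lists had 3 or more genes that entered. Of 10565 symbols, 9501 were current in GRCm38.p6, 949 were older names and 115 were unmatched.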

Additional observations from a re-analysis of the deposited data

How the results depend on the processing

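The count of genes higher (127) and lower (15) in Il3-high cells depended on the processing. It was 566 and 97 with a pseudocount of 0.1 TPM, 12 and 1 with 10 TPM, 721 and 180 for differences of medians, 1045 and 305 at a size of 1, and 12 and 0 at a size of 3. With terms in the fit it was 134 and 28 for set, 69 and 68 for genes detected, and 72 and 97 for both. The number higher was 319 without T2, 78 with 1 limit at 500 TPM Il3, 83 with each set split at its own median, and 71 relative to the median gene (chosen after seeing the data), where 26 were lower. The number lower was 32 without T1, 30 without T3, 51 without T4, 58 without T5 and 34 with limits of 2000 and 50 TPM. Leaving out 1 cell at a time, also added after seeing the data, gave 103 to 141 higher and 14 to 22 lower. The causes were not tested. Of the list medians, 10 of 32 kept 1 sign in the 20 alternatives, that of TNF ligands running from 0.50 to 2.20: Th2 cytokines, chemokines, TNF ligands, granule genes, secreted peptides, G1/S, amino acid transport, the unfolded protein response, AP-1 partners, and naive and homing genes. No named gene past 2 took the opposite sign, but Chaf1b was at 0.00 as a difference of medians. Ccl1, Ccl4, Il31, Serpinb6b, Pdzk1ip1, Nkg7 and Gramd1b stayed past 2 in all 20, Ccr8 and Irf1 in 19, Csf2 in 14 and Il4 in 11. No paired analysis was possible because the cells form 1 group and their numbers pair nothing.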
